A study of Homo sapiens with 8 samples.

Results

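The interferon-stimulated genes described here were 44 genes named by symbol for their known induction by interferon. Of these, 43 were read by at least 1 probe set that named that gene alone, among 19775 genes measured, and STAT2 was not analysed here. Each gene was represented by its probe set with the highest mean over the 8 arrays. Expression had been measured on Affymetrix arrays in HT29 and SW480, established cell lines from human colorectal adenocarcinomas, with 2 arrays in each of 4 groups. HT29 parental control cells were grown in DMEM with 10% fetal bovine serum. HT29 cancer spheres, titled as the first sphere generation, were kept in DMEM-F12 to which N2 had been added together with EGF and bFGF at 10 ng/ml each, so that sphere growth and medium cannot be told apart. SW480-Vector cells were a stable line carrying the control vector, and SW480-Snail cells a stable line labelled as expressing Snail, a transcription factor of epithelial-mesenchymal transition. Both SW480 lines were grown in high-glucose DMEM with 10% fetal bovine serum, and the labels do not say whether either line was 1 clone or a pool. No group was labelled as treated with interferon or infected.

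Interferons are secreted proteins that cells release on sensing foreign nucleic acid. They bind surface receptors whose kinases activate STAT proteins, and the complex of STAT proteins with IRF9 binds a repeated GAAA element in the promoters of target genes. The products of those genes block virus entry, translation, replication or release, while others, such as USP18, damp the signal. Epithelial cells of the gut respond to type I and type III interferons, and some tumour cell lines carry a standing level of these transcripts without added interferon.

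The element that binds the STAT and IRF9 complex was looked for in the promoters, since it is the sequence these genes are known to share. RefSeq promoters of assembly GRCh38.p14, running from 250 bases before to 50 bases after a start site, were at hand for 34 of the 44 genes. The pattern searched was GAAA, then any 2 bases, then GAAA, on either strand, with overlapping matches counted. It occurred in a promoter of 25 of the 34 genes (73.5%), against 3.57% of all 35116 promoters of the same length and 4.38% of the 27305 genes in the table. The shorter pattern GAAANNGAA occurred in the same 25 genes, in 8.11% of all promoters and in 9.86% of the genes in the table. TTCNNNGAA, a palindrome bound by STAT dimers, occurred in 12 of the 34 genes (35.3%), in 7.66% of all promoters and in 9.38% of the genes in the table. The GAAA pair was not found in the windows of CXCL11, HERC6, IFI35, IRF1, IRF9, OAS1, SAMD9L, STAT2 and XAF1. A match is a description of letters and says nothing of binding.

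Promoter stretches are shown for 6 genes that hold the pair and had the largest changes within a line. Capitals mark the matches, which read as GAAA pairs on the printed strand or as TTTC pairs where the match lies on the other strand, and each stretch is written 5′ to 3′ on the gene's own strand.
IFI27, chr14:94110603-94110675, plus strand, bases -133 to -61 from the start site: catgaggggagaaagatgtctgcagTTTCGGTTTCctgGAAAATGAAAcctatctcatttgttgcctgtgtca
IFI6, chr1:27672251-27672373, minus strand, bases -181 to -59: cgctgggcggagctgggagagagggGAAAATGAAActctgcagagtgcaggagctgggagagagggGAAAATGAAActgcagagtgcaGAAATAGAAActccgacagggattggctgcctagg
MX1, chr21:41431829-41431888, plus strand, bases -221 to -162: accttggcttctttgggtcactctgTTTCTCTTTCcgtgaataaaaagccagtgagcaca
IFITM1, chr11:313975-314043, plus strand, bases -65 to 4: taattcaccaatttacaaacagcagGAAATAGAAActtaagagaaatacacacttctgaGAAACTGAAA
RSAD2, chr2:6877607-6877666, plus strand, bases -170 to -111: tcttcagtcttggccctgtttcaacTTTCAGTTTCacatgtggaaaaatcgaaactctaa
BST2, chr19:17405720-17405785, minus strand, bases -155 to -90: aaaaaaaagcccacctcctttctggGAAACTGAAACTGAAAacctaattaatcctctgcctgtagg
IFI6 held 3 matches, IFI27, IFITM1 and BST2 held 2 each, and MX1 and RSAD2 held 1 each in the stretch shown. The 2 matches of BST2 overlapped, so that they form 3 GAAA units in a row, and the 2 of IFI27 lay on opposite strands.

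Values are log2 expression levels, on which a difference of 1 is 2-fold, and a level of 1 probe set cannot be set against that of another. Array medians lay between 5.50 and 5.61. The correlation between the 2 arrays of a group was 0.991 for HT29 parental cells and 0.995 for the other 3 groups, with 200 genes at least 2-fold apart in the parental pair against 10 to 19 in the others. SNAI1, the gene of Snail, read 6.36 and 6.34 in vector cells and 6.32 and 6.38 in the arrays labelled Snail, which differ by 0.00 ± 0.15 (SE, limma adjusted p = 0.99). Its only probe set therefore did not bear out the Snail label, whether it reads the introduced copy is not given, and every direction given for that comparison rests on the label. SNAI1 rose by 1.07 ± 0.15 in spheres (adjusted p = 0.00032). Of 10 colon epithelial markers, 3 (KRT20, LGALS4 and CDH17) lay below the array median on both arrays of each SW480 group, CDH17 alone did so in HT29 parental cells, and 0 did so in spheres. Whether the 2 arrays of a group stand for separate cultures is not in the labels, so p-values reflect only how far these arrays scatter, and that scatter may be technical.

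In HT29 spheres more interferon-stimulated genes rose than fell. At a limma adjusted p under 0.05, 19 of the 43 were higher than in parental cells (44.2%, against 12.4% of all genes) and 7 were lower (16.3%, against 19.0% of all genes), while 17 did not pass. All 4 genes of the OAS family, 7 of 12 antiviral effectors and 4 of 7 genes of the group around IFI6 and IFI27 rose, whereas APOBEC3G, IRF1, CXCL11, HERC5, IFI35, PARP14 and IFIT3 fell. The median change was 0.33, against 0.04 over all genes, and 13 genes passed at 2-fold or more, 9 up and 4 down (10.2% of all genes passed that rule). When arrays were centred on a common median, the median of all genes in this comparison shifted by 0.12, and the share of rises among all called genes went from 39.5% to 56.4%. Under that scaling 22 of the 43 interferon-stimulated genes were higher and 7 lower, against 3968 and 3072 of all 19775 genes. The 2 parental arrays were at least 0.5 log2 apart for 14 of the 43 genes, and the sphere arrays for 0, as the map of all 43 genes by array shows. The share of all genes at 0.5 log2 was not counted. At 2-fold or more, 200 of all genes were apart in the parental pair and 13 in the sphere pair.

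**Figure D1:**
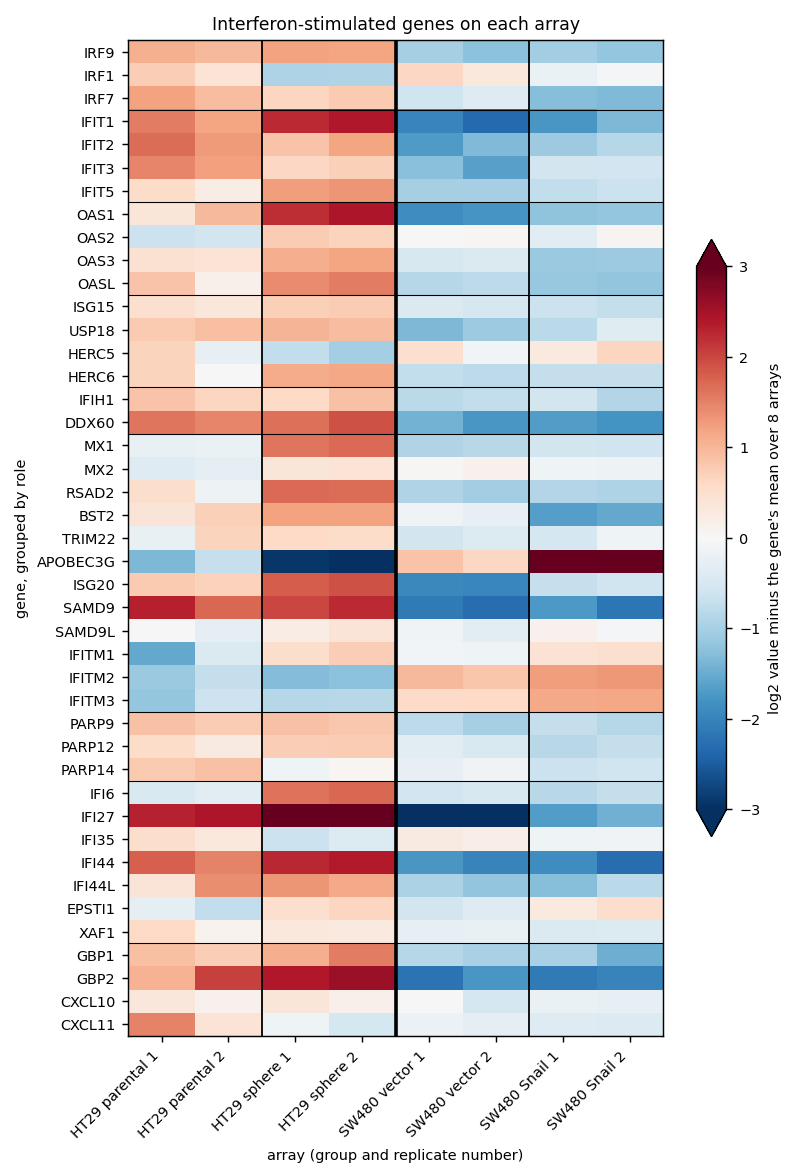
Each row is 1 of the 43 interferon-stimulated genes, grouped by role with thin lines, and each column 1 of the 8 arrays; colour gives the log2 value minus that gene's mean over the 8 arrays, cut at -3 and 3. All 4 HT29 arrays lay above all 4 SW480 arrays for 29 of the 43 genes (67.4%, against 16.7% of all genes), and IFI6, MX1 and OAS1 stood highest on both sphere arrays.

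Among the signal factors, IRF1, a transcription factor induced most strongly by interferon gamma, read 8.87 and 8.54 in parental cells and 7.20 and 7.22 in spheres. Both sphere arrays lay below both parental arrays, a fall of 1.50 ± 0.16 (2.83-fold, adjusted p = 5.5e-05). A second probe set of IRF1 changed by -1.19 in spheres. IRF9, the DNA-binding partner of the STAT complex, did not pass at 0.19 ± 0.13, nor did IRF7, which amplifies interferon production, at -0.36.

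The oligoadenylate synthetases make the messenger that switches on RNase L, which degrades RNA. OAS1 read 8.62 and 9.23 in parental cells and 10.49 and 10.70 in spheres, with no overlap, a rise of 1.67 ± 0.19 (3.17-fold, adjusted p = 8.3e-05). OAS2 read 6.06 and 6.15 in parental cells and 7.46 and 7.36 in spheres, a rise of 1.30 ± 0.15 (adjusted p = 0.00011). The sphere arrays of both genes stood above all 6 other arrays. OASL, a family member without synthetase activity, rose by 0.96, and OAS3 by 0.69. A second probe set of OAS1 rose by 2.22 and that of OAS3 by 1.06, while 1 of the other 2 probe sets of OAS2 did not pass, at 0.35.

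The IFIT proteins bind viral RNA and block its translation, and the family split in spheres. IFIT1 read 8.78 and 8.43 in parental cells and 9.47 and 9.64 in spheres, and rose by 0.95 ± 0.19. IFIT5 rose by 0.91. IFIT3, which partners IFIT1 and IFIT2, read 9.00 and 8.76 in parental cells and 8.16 and 8.25 in spheres, and fell by 0.68 ± 0.15 (adjusted p = 0.0066). The fall of IFIT3 was lost without the first sphere array, and its other probe set did not pass, at -0.18. IFIT2 did not pass, at -0.46. All 4 genes lie together on chromosome 10, where IFIT2 and IFIT3 are neighbours and IFIT1 and IFIT5 are neighbours in the RefSeq gene order.

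ISG15, a ubiquitin-like protein attached to other proteins, stood at 11.33 and 11.17 in parental cells and 11.56 and 11.60 in spheres, and its change of 0.33 did not pass. HERC5, the ligase that attaches ISG15, read 6.30 and 5.39 in parental cells and 4.89 and 4.62 in spheres. Both sphere arrays were lower, a fall of 1.09 ± 0.28 (adjusted p = 0.014) that was lost without the first parental array or the second sphere array. Its neighbour on chromosome 4, HERC6, rose by 0.79, a call lost without the second sphere array. USP18, the protease that removes ISG15 and damps receptor signalling, did not pass at 0.12. The RNA sensor IFIH1 and the helicase DDX60 did not pass either, at 0.00 and 0.25.

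MX1, a GTPase that traps viral nucleocapsids, gave 1 of the largest rises among the antiviral effectors. It read 8.16 and 8.19 in parental cells and 9.99 and 10.10 in spheres, a rise of 1.86 ± 0.12 (3.64-fold, adjusted p = 2.8e-06). IFITM1, a membrane protein that hinders virus entry, read 7.18 and 8.26 in parental cells and 9.24 and 9.45 in spheres. Its parental arrays were 1.08 apart, the widest parental gap among the 43 genes, yet both sphere arrays lay above both (1.62 ± 0.27, adjusted p = 0.0011). The paralogues IFITM2 and IFITM3, whose genes flank IFITM1 on chromosome 11, did not pass, at -0.35 and 0.05. Their probe sets end in x_at, the array's mark for probes that may pair with other transcripts, so readings of these close copies are uncertain.

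RSAD2, known as viperin, makes a nucleotide that ends viral RNA chains. It read 5.66 and 4.99 in parental cells, on either side of the array medians, and 6.84 and 6.81 in spheres, a rise of 1.50 ± 0.19 (adjusted p = 0.00019). ISG20, an exonuclease, rose by 1.13, MX2 by 0.71 and BST2, the tether that holds budding virus to the cell surface, by 0.65. SAMD9L passed at 0.44 but lost the call under 12 of 15 alternatives, and TRIM22, SAMD9, IFITM2 and IFITM3 did not pass.

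APOBEC3G, a cytidine deaminase that mutates viral DNA, moved the other way. It read 6.34 and 7.00 in parental cells and 4.77 and 4.54 in spheres, a fall of 2.02 ± 0.20 (adjusted p = 4.7e-05). The sphere arrays lay below all 6 other arrays and below the array medians. A dimmer probe set of APOBEC3G did not pass, at 0.23, so that the fall rests on 1 probe set.

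IFI6, a small membrane protein that inhibits apoptosis and flavivirus replication, rose most of the 43 genes. It read 7.27 and 7.42 in parental cells and 9.37 and 9.47 in spheres, a rise of 2.07 ± 0.13 (4.21-fold, adjusted p = 2e-06), while the 4 SW480 arrays lay between 6.92 and 7.27. IFI27, a mitochondrial protein widely used as a marker of interferon exposure, read 12.05 and 12.18 in parental cells and 13.03 and 13.34 in spheres, a rise of 1.07 ± 0.17. EPSTI1 rose by 1.08 and IFI44 by 0.69, and the IFI44 call was lost without the second parental or the second sphere array, or with probe sets averaged. The other probe set of IFI44 gave -0.02. IFI35 fell by 0.95, and IFI44L (0.33) and XAF1 (-0.05) did not pass, although another probe set of XAF1 was called higher, at 0.44. Of the ADP-ribosyl transferases PARP14 fell by 0.87, while its other probe set did not pass, at 0.25, and PARP9 and PARP12 did not pass, at 0.02 and 0.33.

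GBP2, a guanylate-binding protein that coats intracellular pathogens, read 8.26 and 9.27 in parental cells and 9.63 and 9.80 in spheres, and rose by 0.95 ± 0.28 (adjusted p = 0.024). That call was lost without the first parental array and without either sphere array. GBP1 did not pass by its brightest probe set, at 0.49, but 2 of its 3 others rose, by 1.38 and 0.97. CXCL11, a T-cell chemokine, read 5.34 and 4.26 in parental cells and 3.73 and 3.33 in spheres, and fell by 1.27 ± 0.28 (adjusted p = 0.006). Leaving out the second sphere array ended that call. All 8 CXCL11 values lay below the array medians, and detection was not measured. CXCL10 did not pass, at 0.03.

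**Figure D2:**
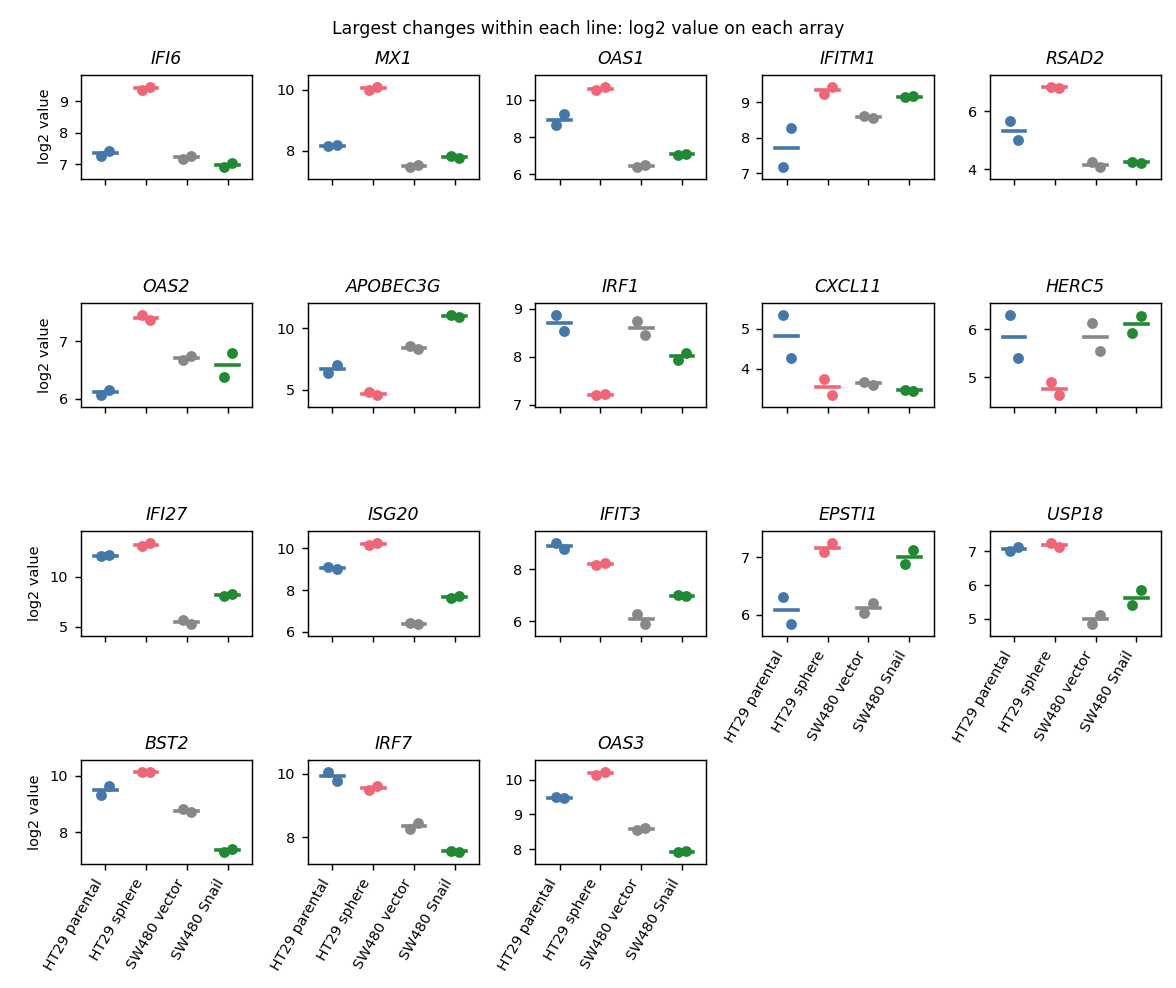
Each panel is 1 gene with the largest changes within a line; points are the log2 values of the 2 arrays in each group and bars are group means, and each panel has its own vertical range. IFI6, MX1, OAS1 and RSAD2 were highest on both sphere arrays, APOBEC3G was lowest on the sphere arrays and highest on the arrays labelled Snail, and IFI27 was lowest in vector cells at 5.70 and 5.32.

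The list of other interferon pathway genes moved both ways in spheres. Of 39 measured, 8 were higher (20.5%, against 12.4% of all genes) and 10 lower (25.6%, against 19.0%), with a median change of 0.02. Of the 8 ligands measured, IFNB1 read 4.33 and 4.15 in parental cells and 4.62 and 4.87 in spheres (0.51, adjusted p = 0.016), and IFNE fell by 0.45. All 8 ligands stayed below the array medians on every array. IFNAR1, a chain of the type I receptor, fell by 0.75 and IFNGR1, a chain of the interferon gamma receptor, rose by 0.71.

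Among the sensing genes, TICAM1, the adaptor of TLR3, read 6.44 and 6.56 in parental cells and 8.31 and 8.23 in spheres, a rise of 1.77 ± 0.14. TLR3, the sensor of double-stranded RNA, read 5.96 and 5.84 in parental cells and 3.86 and 3.85 in spheres, a fall of 2.05 ± 0.13. Both sphere readings of TLR3 lay below the array medians. By these probe sets the adaptor and its receptor changed in opposite directions. Of the other 2 probe sets of TLR3, 1 gave -1.86 and the other did not pass, at -0.32. MYD88, the adaptor of most other toll-like receptors, rose by 1.05 and PIAS1, a STAT inhibitor, by 0.59. STING1, the adaptor of cytosolic DNA sensing, fell by 1.07, IRF2 by 0.83 and EIF2AK2, the RNA-activated kinase that halts translation, by 0.77.

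Markers of other cell types were read beside these changes. The 5 measured leukocyte markers averaged 7.21 to 7.30 on the parental arrays and 7.33 to 7.44 on the sphere arrays, with LYZ, an enzyme also made by gut epithelium, at 12.85 to 12.99 on the 4 HT29 arrays. The 3 markers of plasmacytoid dendritic cells, the main interferon producers of blood, averaged 5.34 to 5.43 and 5.23 to 5.44. On both arrays of a group, 2 of the 5 leukocyte markers lay below the array median in parental cells and 1 in spheres, and 1 of the 3 dendritic cell markers in each. CD3E was higher in spheres by 0.39 and PECAM1, an endothelial marker, by 0.57. Of the 10 colon epithelial markers 4 were higher, CDH17 by 4.74, KRT20 by 1.59, KRT19 by 0.64 and CDX1 by 0.59, and VIL1 was lower by 0.77. Their part in the changes of the interferon-stimulated genes was not tested. The control probe sets for BioC, a spiked-in RNA, read lower on the parental arrays than on the others, by 1.64 against the sphere arrays and by 1.60 against the vector arrays. Those for BioB were higher on the sphere than on the parental arrays by 0.35 and those for BioD by 0.14. The part of that difference was not tested.

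In SW480 the comparison was between the arrays labelled Snail and the vector arrays. Of the 43 genes 8 were higher than in vector cells (18.6%, against 8.91% of all genes), 5 were lower (11.6%, against 7.34%) and 30 did not pass. IFI27, APOBEC3G and ISG20 rose most, and BST2, IRF7 and OAS3 fell most. The median change was 0.05, against 0.01 over all genes, and 4 genes passed at 2-fold or more, 3 up and 1 down (3.32% of all genes). Fewer of the 43 genes were called without the first vector array or without the second array labelled Snail, and fewer of all genes too. The median change of the 43 genes was then 0.14 and 0.06.

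IFI27 read 5.70 and 5.32 in vector cells and 8.07 and 8.31 in the arrays labelled Snail, a rise of 2.68 ± 0.17 (adjusted p = 1.6e-05). The arrays labelled Snail remained below the HT29 arrays, which lay at 12.05 or higher. APOBEC3G read 8.54 and 8.30 in vector cells and 11.07 and 10.90 in the arrays labelled Snail, a rise of 2.57 ± 0.20 (5.92-fold, adjusted p = 5.6e-05), again by 1 probe set, since its other changed by -0.06. ISG20 read 6.40 and 6.39 in vector cells and 7.64 and 7.74 in the arrays labelled Snail, and rose by 1.29 ± 0.12. Its other probe set was called higher in both comparisons. None of these 3 genes overlapped between the groups.

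IFIT3 rose by 0.89 ± 0.15, from 6.28 and 5.92 to 7.00 and 6.97, although its other probe set did not pass, at 0.18. IFIT1 (0.61), IFIT2 (0.54) and IFIT5 (0.31) did not pass. EPSTI1 read 6.03 and 6.20 in vector cells and 6.88 and 7.12 in the arrays labelled Snail, and rose by 0.88 ± 0.17. USP18 read 4.86 and 5.13 in vector cells, below the array medians, and 5.41 and 5.85 in the arrays labelled Snail (0.63 ± 0.17, adjusted p = 0.028). OAS1 rose by 0.63 and IFITM3 by 0.57, both at an adjusted p of 0.045 and both lost when any 1 array of either SW480 group or of the spheres, which share the estimate of the spread, was left out. The calls of EPSTI1 and USP18 were lost without the first vector array or without the second array labelled Snail, and that of USP18 also without the second vector array.

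BST2 fell from 8.84 and 8.70 in vector cells to 7.29 and 7.40 in the arrays labelled Snail, by 1.43 ± 0.14 (2.69-fold, adjusted p = 0.0002). IRF7 fell from 8.26 and 8.46 to 7.57 and 7.54, by 0.81 ± 0.14. For both genes the arrays labelled Snail were the lowest of all 8. OAS3 read 8.56 and 8.60 in vector cells and 7.92 and 7.94 in the arrays labelled Snail, and fell by 0.65 ± 0.12, but its other probe set gave 0.01. IRF1 read 8.75 and 8.45 in vector cells and 7.93 and 8.09 in the arrays labelled Snail, and fell by 0.59 ± 0.16 (adjusted p = 0.028). PARP14 fell by 0.45. The IRF1 call was lost without the first vector array or without either array labelled Snail. That of PARP14 was lost without any 1 of the 4 SW480 arrays. Averaging probe sets ended both calls as well, and for each gene another probe set was not called. Neither IFIH1 (0.06) nor DDX60 (-0.14) passed, and the 2 guanylate-binding proteins and 2 chemokines lay between -0.31 and 0.03 and did not pass.

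In the arrays labelled Snail, 2 of the 39 other pathway genes were higher (5.13%, against 8.91% of all genes) and 5 were lower (12.8%, against 7.34%). TLR3 rose by 0.70 and RIGI, a cytosolic RNA sensor, by 0.57, while IRF8 fell by 0.92, STING1 by 0.65, IRF3 by 0.56 and IFNGR2 by 0.44. Neither rise held in every probe set, since 1 of the other 2 of TLR3 gave -0.38 and 1 of the other 2 of RIGI gave -0.29. The changes of the 8 ligands lay between -0.17 and 0.11. Of the 26 measured cell type markers, VIL1 was lower by 1.06, PECAM1 by 0.55 and LYZ by 0.46 in the arrays labelled Snail, and KRT8 was higher by 0.57 and KRT19 by 0.49. The array's probe sets for 18S ribosomal RNA read 1.40 higher and those for 28S ribosomal RNA 0.94 higher on the arrays labelled Snail than on the vector arrays. Those for the control RNAs BioB, BioC, BioD and Cre changed by -0.33, -0.46, -0.45 and -0.26. The part of these differences in the changes of the interferon-stimulated genes was not tested.

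The changes in spheres and those under the Snail label are set side by side next, since the design holds 1 treatment in each line. The 2 comparisons share no array, but differ in both line and treatment. EPSTI1, IFI27, ISG20 and OAS1 rose in both, and IRF1 and PARP14 fell in both. BST2 and OAS3 rose in spheres and fell in the arrays labelled Snail, and APOBEC3G and IFIT3 fell in spheres and rose in the arrays labelled Snail. Of the other genes, 13 rose and 3 fell in spheres alone by this threshold. In the arrays labelled Snail alone 2 rose and 1 fell, and 14 genes passed in neither comparison. The joint calls were not counted over all genes. How far the shared or opposite changes exceed what the call rates of all genes would give is therefore not known.

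The difference between the 2 changes was tested itself. It passed for 21 of the 43 genes, with 13 higher in spheres (30.2%, against 10.6% of all genes) and 8 lower (18.6%, against 16.9%), and 12 passed at 2-fold or more (14.3% of all genes). The median difference was 0.20, against 0.03 over all genes. With arrays centred on a common median, the share of higher calls among all called genes went from 38.5% to 52.8%. The median of all genes shifted by 0.14. Of the 43 interferon-stimulated genes 17 were then higher and 6 lower, against 3057 and 2734 of all 19775 genes. Without the second array labelled Snail fewer of the 43 genes passed, and fewer of all genes too.

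IFI6 gave the largest positive difference at 2.32 ± 0.18 (adjusted p = 1.7e-05), having changed by 2.07 in spheres and -0.25 in the arrays labelled Snail. BST2 differed by 2.08 ± 0.20 and MX1 by 1.57 ± 0.17. All 4 genes of the OAS family differed in the same direction, by 1.04 to 1.42. APOBEC3G differed by -4.58 ± 0.29 (adjusted p = 6.1e-06), which its other probe set did not show, at 0.29. IFI27 differed by -1.62 ± 0.24, since it rose in both lines but more under the Snail label. IFIT3 differed by -1.56 ± 0.22 and HERC5 by -1.36 ± 0.40, and the HERC5 call was lost without the first parental array, either sphere array, the second vector array or the second array labelled Snail. EPSTI1 and ISG20, which also rose in both lines, did not pass for the difference, at 0.20 and -0.16.

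**Figure D3:**
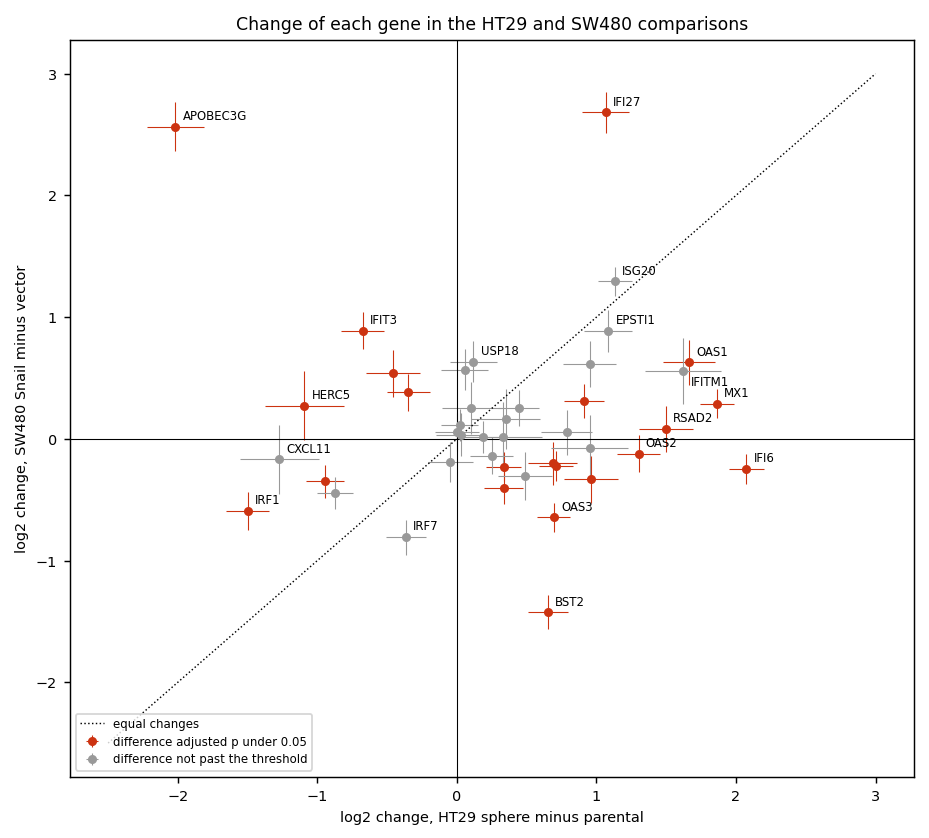
Each point is 1 of the 43 genes, with its log2 change from HT29 parental cells to spheres on the horizontal axis and from SW480 vector cells to the arrays labelled Snail on the vertical axis; bars are standard errors and the dotted line marks equal changes. Red points are the 21 genes whose difference passed, among them APOBEC3G at -2.02 and 2.57, BST2 at 0.65 and -1.43 and IFI6 at 2.07 and -0.25.

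The lines themselves were compared next, as cultured in serum. Comparing SW480 vector cells with HT29 parental cells, 31 of the 43 genes were lower in SW480 (72.1%, against 23.5% of all genes), 6 were higher (14.0%, against 22.6%) and 6 did not pass. Of these, 26 passed at 2-fold or more, 23 lower and 3 higher (18.9% of all genes). The median difference was -1.11, against 0.07 over all genes. It was -0.88 without the first parental array and -1.43 without the second. This comparison uses the same parental arrays as the sphere comparison and the same vector arrays as the Snail comparison, so the 3 sets of changes are not independent. The lines also differ in origin, and in the vector that 1 of them carries.

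The widest gap was in IFI27, at 12.05 and 12.18 in HT29 parental cells against 5.70 and 5.32 in vector cells, a difference of -6.61 ± 0.17 (adjusted p = 1.3e-09). The vector readings lay on either side of the array medians, and since detection was not measured no fold is given. SAMD9, an antiviral factor against poxviruses, read 8.91 and 8.29 in parental cells and 4.46 and 4.29 in vector cells (-4.23 ± 0.21). Its neighbour on chromosome 7, SAMD9L, did not pass at -0.08 and lay below the array medians throughout. GBP2 read 8.26 and 9.27 in parental cells against 5.01 and 5.47 in vector cells (-3.53 ± 0.28). The vector readings of SAMD9 and GBP2 lay below the array medians, so the size of these gaps is uncertain too. All 4 guanylate-binding proteins and chemokines were lower in SW480, from -0.49 in CXCL10 to -3.53 in GBP2. The CXCL10 call was lost under 10 of 14 alternatives.

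All 4 IFIT genes were lower, with IFIT1 at 8.78 and 8.43 in parental cells and 5.26 and 4.91 in vector cells (-3.52 ± 0.19). Both vector readings of IFIT1 lay below the array medians. IFIT2 differed by -2.99, IFIT3 by -2.78 and IFIT5 by -1.38, although the dimmer probe set of IFIT2 gave 0.07. IFI44 differed by -3.52, DDX60 by -3.12, ISG20 by -2.67, OAS1 by -2.47, IRF9 by -2.13 and USP18 by -2.07. By their mean over the 8 arrays IFI44 and DDX60 were among the dimmest 40% of genes. The vector readings of USP18 lay below the array medians, so the sizes for these genes are uncertain too. IRF9 read 9.37 and 9.28 in parental cells, 9.52 and 9.50 in spheres, 7.32 and 7.08 for SW480 vector and 7.27 and 7.16 for SW480 labelled Snail. It therefore separated the lines with neither within-line change passing. The sensor IFIH1 differed by -1.52 by its brightest probe set, while 1 of its 2 others was called the opposite way, at 0.57. The remaining lower calls, by size, were IFI44L, GBP1, PARP9, IRF7, OASL, CXCL11, RSAD2, HERC6, PARP14, OAS3, ISG15, PARP12, BST2, TRIM22, MX1 and XAF1, from -1.96 to -0.59. The XAF1 call was lost without the first parental or the first vector array, and that of TRIM22 without the second parental array, either vector array or either sphere array.

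The 6 genes higher in SW480 were 5 antiviral effectors and OAS2. IFITM2 read 9.70 and 10.10 in parental cells and 11.79 and 11.64 in vector cells (1.82 ± 0.15, 3.52-fold). IFITM3, which blocks fusion of viruses in endosomes, read 9.81 and 10.36 against 11.55 and 11.59 (1.49 ± 0.17). APOBEC3G read 6.34 and 7.00 against 8.54 and 8.30 (1.75 ± 0.20). These 3 genes (6.98%, against 17.2% of all genes) were also the ones for which all 4 SW480 arrays lay above all 4 HT29 arrays.

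IFITM1 read 7.18 and 8.26 in parental cells and 8.63 and 8.57 in vector cells (0.88 ± 0.27, adjusted p = 0.022), a call lost without the first parental array or either vector array. OAS2 was higher by 0.60 ± 0.15, from 6.06 and 6.15 to 6.68 and 6.74, but its 3 probe sets disagreed, 1 of them differing by -1.55. MX2 was higher by 0.41 ± 0.12, from 6.48 and 6.61 to 6.90 and 7.00, lost without the first parental or the second vector array. MX1, next to MX2 on chromosome 21, was lower by 0.66. EPSTI1, HERC5, SAMD9L, IRF1, IFI6 and IFI35 did not pass between the lines, at -0.18 to 0.04. However, another probe set of EPSTI1 was called lower in SW480, at -0.91, as was the average of its probe sets, at -0.44.

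**Figure D4:**
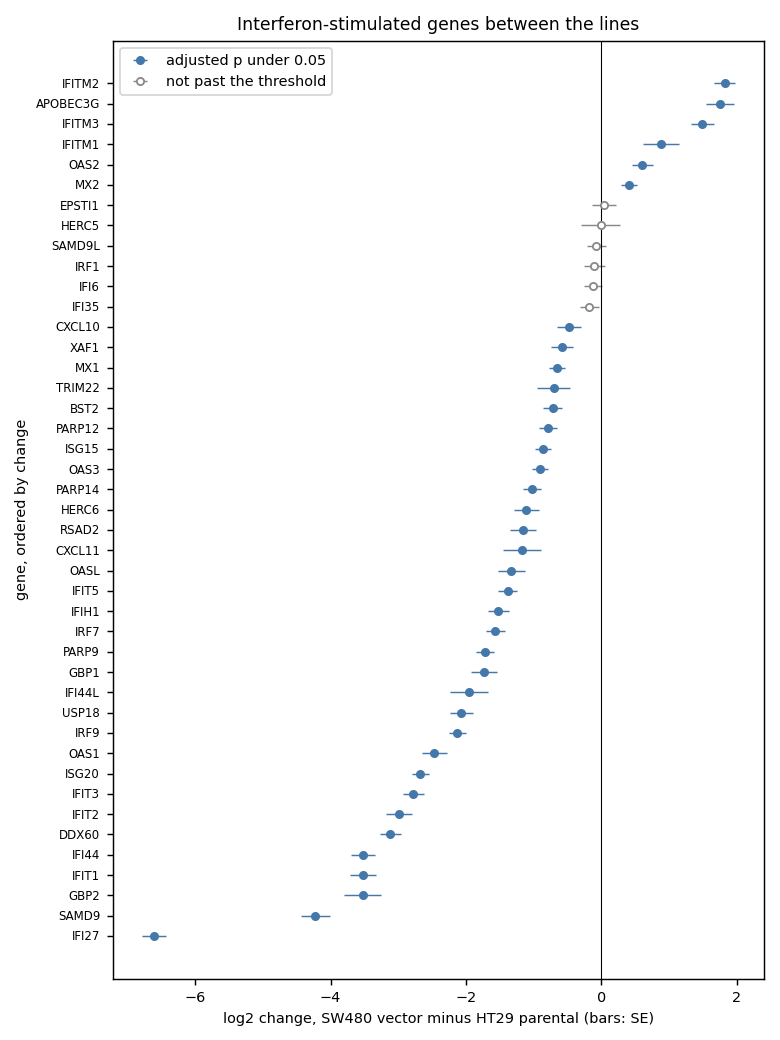
Log2 difference of each of the 43 genes between SW480 vector and HT29 parental cells, ordered by size, with standard errors; filled points passed an adjusted p under 0.05 and open points did not. The 31 lower genes reach from CXCL10 at -0.49 to IFI27 at -6.61, and the 6 higher genes from MX2 at 0.41 to IFITM2 at 1.82.

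Of the 39 other pathway genes 12 were higher (30.8%, against 22.6% of all genes) and 10 lower (25.6%, against 23.5%) in SW480, with a median difference of 0.16. IRF8 was higher by 1.55, IFNAR1 by 1.15, IKBKE, a kinase of the sensing pathway, by 1.13 and TYK2, a kinase of the type I receptor, by 0.96. RIGI was lower by 1.72, TLR3 by 1.42, IFNGR1 by 1.31 and CGAS, the cytosolic DNA sensor, by 1.31, though a second probe set of CGAS gave 0.09 and 1 of the other 2 of TLR3 gave -0.0082. Leukocyte markers averaged 5.46 to 5.59 on the vector arrays against 7.21 to 7.30 on the parental arrays, with LYZ lower by 6.72 and CD14 by 2.57. Plasmacytoid dendritic cell markers averaged 5.03 to 5.33 against 5.34 to 5.43. Of the 10 colon epithelial markers 6 were lower in SW480 and 1 higher. The BioC control probe sets were higher on the vector arrays by 1.60, as given above. The part of these differences was not tested.

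Over all 4 groups, the mean was highest in spheres for 30 genes, in parental cells for 9, in the arrays labelled Snail for APOBEC3G, HERC5, IFITM2 and IFITM3, and in vector cells for 0. It was lowest in vector cells for 19 genes, in the arrays labelled Snail for 14, and in parental cells and spheres for 5 each. The median of the 43 genes on each array was 8.26 and 8.19 in parental cells, 8.18 and 8.29 in spheres, 6.41 and 6.51 for SW480 vector, and 6.88 and 6.79 for SW480 labelled Snail. On both arrays of a group, 3 genes lay below the array median in parental cells, 6 in spheres, 15 for SW480 vector and 12 for SW480 labelled Snail. CXCL11, SAMD9L and TRIM22 did so in every group. None of these counts was taken over all genes, so how far they are particular to these genes is not known. The order of group means also counts differences that did not pass.

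The promoter pair was set beside the changes as a description. Of the 25 measured genes that hold it, 12 were higher and 3 lower in spheres, with a median of 0.49. Of the 8 measured genes without it in the window 3 were higher and 3 lower, with a median of 0.07. Of the 10 measured genes with no promoter at hand, 4 were higher and 1 lower, with a median of 0.23. Over all genes 12.4% were higher and 19.0% lower, and the split by the pair was not tested. Under the Snail label the counts were 5 higher and 3 lower of 25, 1 and 1 of 8, and 2 and 1 of 10. Over all genes 8.91% were higher and 7.34% lower there. Between the lines 20 of 25, 5 of 8 and 6 of 10 were lower in SW480, against 23.5% of all genes. OAS1, which rose in spheres by 1.67, and IRF1, which fell by 1.50, both lack the pair in their windows and both hold TTCNNNGAA. IFI6, with 3 copies, BST2 and MX1 rose in spheres by 2.07, 0.65 and 1.86, and changed in the arrays labelled Snail by -0.25, -1.43 and 0.29.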

How the data were processed

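The authors deposited log2 values for every probe set of each array, computed by RMA according to the submitters' processing notes. Its version and probe definitions were not given in the sources used here. Nothing further was normalised. Of 54675 probe sets, 62 were controls, 41091 named 1 gene, 1801 named several and 11721 were not named by GEO's platform annotation. Entrez identifiers of 41037 matched RefSeq (GRCh38.p14), which changed 0 symbols. With limma, the 8 arrays entered 1 model of group means (limma 3.58.1 in R 4.3.3), with 4 residual and 6.1 prior degrees of freedom, and p-values were two-sided and Benjamini-Hochberg adjusted over 19775 genes. An exact permutation test of 2 arrays against 2 cannot go below 0.333 and was not used. Changes are given ± SE. Self-tests on simulated data were run.

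The genes and lists were chosen with earlier results of these data known. Array values were given for the 6 largest rises and 4 largest falls per comparison among genes past the threshold without overlap, and for the difference the 4 largest each way. Up to 4 pathway genes each way were named, and other members by their change. A few more values were chosen after they were seen. Probe sets naming several genes, STAT2 and a few list genes were not analysed here. Alternatives were other probe sets, scaling, priors, weights, filters, fits per line, a replicate block and leaving out each array. Deviations of same-numbered arrays correlated at -0.057 to 0.061, which cannot settle whether replicate numbers pair the arrays. The number of arrays limits the precision.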

Additional observations from a re-analysis of the deposited data

Results flagged for a closer look

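For 21 genes the change in HT29 spheres differed from the change in the SW480 arrays labelled Snail by limma's test of the difference itself (adjusted p under 0.05). Sphere culture and the Snail label are different treatments in different lines. The difference, as sphere change minus Snail change in log2, was negative for APOBEC3G (-4.58), IFI27 (-1.62), IFIT3 (-1.56), HERC5 (-1.36), IFIT2 (-0.996), IRF1 (-0.91), IFITM2 (-0.73) and IFI35 (-0.60). It was positive for ISG15 (0.56), IFIT5 (0.60), PARP12 (0.73), IFI44 (0.89), MX2 (0.94), OAS1 (1.04), OASL (1.30), OAS3 (1.34), RSAD2 (1.42), OAS2 (1.42), MX1 (1.57), BST2 (2.08) and IFI6 (2.32). Leaving aside other probe sets and the 2-fold rule, 8 of the 13 positive calls (OAS2, OAS3, OASL, MX1, MX2, RSAD2, BST2 and IFI6) and 3 of the 8 negative ones (APOBEC3G, IFIT3 and IFI27) held in every alternative run, and each of the others was lost without at least 1 array.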

How the results depend on the processing

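With 2 arrays a group, calls near the threshold depended on single arrays. Leaving aside other probe sets and the 2-fold rule, the calls that held in every alternative run were 15 of 19 rises and 3 of 7 falls in spheres, 4 of 8 and 2 of 5 under the Snail label, and 3 of 6 higher and 26 of 31 lower between the lines. Requiring 2-fold as well left 13 genes in spheres, 4 under the Snail label and 12 for the difference. Leaving out each array in turn gave 20 to 28 genes called in spheres, 7 to 17 under the Snail label, 33 to 36 between the lines and 13 to 21 for the difference, with medians of 0.32 to 0.41, 0.00 to 0.14 and -1.43 to -0.88 in the first 3; a group left with 1 array was assumed to vary like the others. The median in spheres was 0.46 with arrays centred on a common median and 0.49 without the dimmest 40% of genes, and the median between the lines was -0.79 with probe sets averaged. With the replicate number as a block, 26 of the 43 genes were called in spheres, 13 under the Snail label, 37 between the lines and 22 for the difference. Over all 19775 genes these counts were 6081, 3065, 8970 and 5281. The block ended the calls of IFIT5 and IFI35 for the difference and no other call of the 43 genes.

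Averaging probe sets turned the sign between the lines for OAS2 (-0.14) and EPSTI1 (-0.44). Another probe set turned the sign, in spheres, for APOBEC3G (0.23), PARP14 (0.25), IFI44 (-0.021), XAF1 (0.44), PIAS1 (-0.090) and RIGI (0.21). It did so under the Snail label for OAS3 (0.011), APOBEC3G (-0.061), RIGI (-0.29) and TLR3 (-0.38). Between the lines it did so for IFIT2 (0.068), OAS2 (-1.55), HERC6 (0.30), IFIH1 (0.025 and 0.57), PARP14 (0.25), EPSTI1 (-0.91), GBP1 (0.10) and CGAS (0.091), and for the difference in IFIT2 (0.60), APOBEC3G (0.29), IFI44 (-0.075), IFNAR1 (0.051), RIGI (0.036) and TLR3 (0.057). Of these readings, XAF1 (0.44) in spheres and OAS2 (-1.55), IFIH1 (0.57) and EPSTI1 (-0.91) between the lines passed the threshold themselves. So did the averaged EPSTI1 (-0.44). The cause was not tested.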
